A study of Homo sapiens with 6 samples.

Results

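The genes for the proteins of the cytosolic ribosome were examined in 143B, a human osteosarcoma cell line, with and without CRISPR/Cas9 deletion of CNTNAP4, a contactin-associated membrane protein of the neurexin family. Members were taken by symbol alone: RPL or RPS followed by a number, with or without a final A, together with RPLP0, RPLP1, RPLP2, RPSA and RPS4X and without RPS27L. These were 77 of the 54308 genes listed, 46 for the large and 31 for the small ribosomal subunit. All 77 had a value in each of the 6 libraries and all 77 passed the filter for testing.

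The labels describe 3 vector control (VC) samples from cells that received a vector plasmid and 3 knockout (KO) samples from cells that received a CNTNAP4 KO plasmid, with 48 h of transfection in both groups. The study's methods name a U6gRNA-Cas9-2A-RFP vector, sorting of RFP-positive cells from both transfections, and single cell colonies expanded before RNA was taken, with a longer transfection than the labels give. Which colony each KO library came from is not stated, so an effect of the deletion and a property of a colony cannot be told apart. The study calls the 3 samples of each group biological replicates, and its methods speak of independent RNA samples from clonal cells. The sources used here do not say whether these were separate cultures, and p-values here measure only the spread between these libraries, which may be technical.

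Values are log2 signals that were already quantile-normalized between libraries, so that the gene at a given rank has nearly the same value in every library. The linear unit beneath the logarithm is not stated and no read counts were given, so the depth of the libraries is unknown, intervals for counting error cannot be given, and a higher signal in 1 gene than in another does not mean more transcripts. Ribosomal protein genes also have many processed pseudogenes of nearly the same sequence; 1928 such rows were listed, 30 of them with any value, and how reads shared with them were assigned is not given in the sources used here. A change is given as the log2 fold change, KO minus VC, with its standard error (SE), and a gene was called higher or lower when its limma p-value adjusted by Benjamini-Hochberg over all 19306 genes tested was under 0.05. Groups of 3 against 3 cannot reach an exact permutation p below 0.1, so no single gene was tested that way.

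As background, the ribosome is built of a small subunit, which reads the mRNA, and a large subunit, which joins the amino acids, and nearly every cytosolic ribosomal protein is present once in each particle. The mRNAs of these genes begin with a 5′ terminal oligopyrimidine tract (TOP), a C followed by a run of pyrimidines at the very first bases, through which mTOR and the RNA-binding protein LARP1 control how well they are translated. That control acts on translation and on mRNA storage, which RNA-seq does not measure directly. Dividing tumour cells make ribosomes at a high rate, and these mRNAs are among the most abundant in such cells.

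CNTNAP4 had a value in 1 library only, VC replicate 3, at -7.18, so the deletion could not be checked from its own level. Of 10 mesenchymal and bone markers all 10 were tested; VIM averaged 10.4 and SPARC 6.50 in VC, whereas THY1 and COL1A2 were low at -4.97 and -4.81. Of these 10, 3 were called higher and 2 lower, with ALPL at 0.58, NT5E at -0.66 and COL1A2 at -0.81. Among all genes tested, 13.1% were called higher and 19.8% lower. The epithelial marker EPCAM fell by 0.67 (limma adjusted p = 0.0157), with the summed linear signal of the 4 epithelial markers at 3.09 to 3.49 in VC and 1.79 to 2.24 in KO. That sum adds little to EPCAM itself. The only one of the 4 with a value in KO was EPCAM, and in VC the highest of the others was KRT5 at -5.34. The other 10 markers of epithelial, blood and endothelial cells were at most -3.29 in any library, 2 of them had no value at all and 5 had none in KO. The part of EPCAM in the results was not tested, and in bulk RNA fewer cells of a type and less RNA per cell cannot be told apart. In a principal component analysis of the 17698 genes with 6 values, the first component (63.5% of the variance) placed the VC libraries between -48.4 and -46.7 and the KO libraries apart from each other, at 20.8, 73.8 and 48.9 for replicates 1, 2 and 3.

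The ribosomal protein genes did not move as a block. Of the 77, 9 were called higher in KO and 9 lower, and 59 were not called. Over all genes tested 13.1% were called higher and 19.8% lower. In this fit the members' share was thus near the background for higher calls and under it for lower calls. The members' median log2 fold change was 0.05, with a range from -0.69 to 0.49, and no member changed 2-fold. For all genes tested the median was -0.13, with 7766 positive and 11540 negative values, and this median depended on the scaling, as given below. Of the members, 46 had a positive and 31 a negative log2 fold change, and 27 were within 0.1 of 0.

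The members also varied less than other abundant genes. Their log2 fold changes had an SD of 0.23, against 0.47 for the 500 other genes of highest mean signal and 0.74 for all genes tested. Only 3 members, 3.90%, were beyond 0.5 in either direction (RPLP2, RPL8 and RPS26), as against 22.4% of the 500 other genes. Of those 500 genes, 16.6% were called higher and 21.8% lower, with a median of -0.09. The 500 genes were taken by mean signal over all 6 libraries and were not matched to the members by rank. Genes high mainly in 1 group, such as MMP1, described below, were thus among them. These are descriptions, and no test of the members as a set was made.

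The sum of the linear signals of all 77 genes hardly differed between the groups, after a normalization that gives every library nearly the same set of values. The sum thus depended almost wholly on the ranks that the members held, most of them among the highest of every library. It therefore cannot show whether the total mRNA of these genes changed. The members made up 21.9% ± 0.14 (SD, n = 3) of the summed linear signal in VC and 21.8% ± 0.28 (SD, n = 3) in KO. Their median log2 signal was 9.53, 9.52 and 9.48 in VC replicates 1 to 3 and 9.60, 9.67 and 9.65 in KO replicates 1 to 3, so that every KO library lay above every VC library by a small margin. What differed was the scatter around the VC mean. The members' deviations from their VC means had an SD of 0.033 to 0.055 in the VC libraries and of 0.19 to 0.29 in the KO libraries, where they include the difference between the groups, with KO replicate 2 the widest and KO replicate 1 the narrowest.

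Between the groups, 34 members had every KO value above every VC value, 20 had every KO value below, and 23 overlapped. Over the genes with 6 values, 22.6% lay wholly above and 36.7% wholly below. The 18 called members were all among those without overlap, as were 36 of the 59 that were not called. With an unadjusted limma p under 0.05 there were 30 of the 77 members. That was a smaller share than the 9241 of 19306 genes tested and the 258 of the 500 other genes of highest mean signal. The SEs ran from 0.060 to 0.19.

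The counts depended on how the libraries were scaled. With each library centred on its median gene, 14 members were called higher and 4 lower. Centred on the median of the members themselves, 3 were called higher and 18 lower. Over all genes tested these settings called 6238 and 7553, against 6354 with the signals as deposited. Under each of 4 other scalings 7 members stayed called in the same direction: RPLP2, RPL8, RPL7 and RPL30 were lower and RPL10A, RPL3 and RPL10 higher. The members' median itself ran from -0.08 to 0.14 under these scalings, while the median of all genes ran from -0.26 to -0.04. All 18 called members kept their sign under every setting run, with the exception of RPS2, which was at 0.00 under 1 of them, described with the highest ranks.

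**Figure D1:**
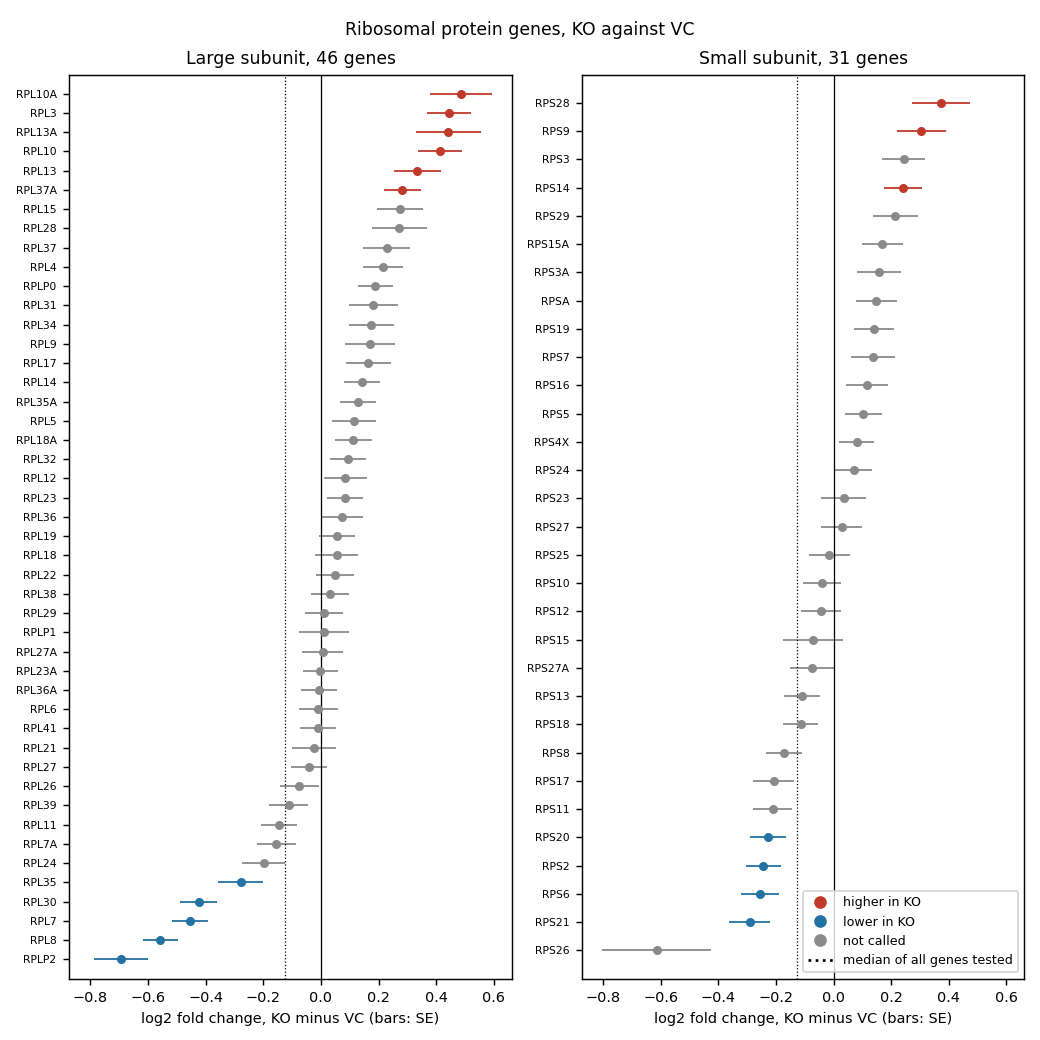
Log2 fold change (KO minus VC, horizontal axis, bars are SE) of the 46 large and 31 small subunit genes, with 3 libraries in each group. Genes called higher are red, those called lower blue, the others grey, and the dotted line marks the median of all genes tested, -0.13; most members lie between the dotted line and 0.2, with RPLP2 at -0.69 and RPL10A at 0.49 at the ends.

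The first bases of the transcripts are shown here because the tract that marks these mRNAs starts there. RefSeq promoter windows of build GRCh38.p14 were found for 62 of the 77. Of these 62 members, 42 (67.7%) had a C at the annotated start followed by at least 4 more pyrimidines, compared with 1104 of all 27305 promoters (4.04%). A C at the start was found in 74.2% of the members and 15.0% of all promoters. Each line gives 10 bases before and 20 from the annotated start, 5′ to 3′ on the strand of the gene, with the unbroken run of C and T from a C at the start in capitals; no capitals means that the start is another base. Annotated starts may differ from the starts used in these cells. The first 4 are the lower members with a window, RPS18 follows, the next 7 are higher members, and the last is RPS26. The higher members RPL13 and RPS28 also have windows, which are not shown, and neither has a run of at least 5.
RPLP2: tcggcgccttCCTTTTCCTCCCTgtcgcca
RPS21: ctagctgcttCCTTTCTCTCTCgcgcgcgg
RPL35: cgcctacttcCTCTTTCCCTCggagcgggc
RPS6: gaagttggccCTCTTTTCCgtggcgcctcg
RPS18: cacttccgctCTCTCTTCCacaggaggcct
RPL13A: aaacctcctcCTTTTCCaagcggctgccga
RPS9: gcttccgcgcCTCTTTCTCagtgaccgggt
RPL37A: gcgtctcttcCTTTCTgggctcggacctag
RPS14: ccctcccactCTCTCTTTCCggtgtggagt
RPL3: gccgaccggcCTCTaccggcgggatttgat
RPL10: ccactctcagaaatatacgtctgtcacagt
RPL10A: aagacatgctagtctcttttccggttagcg
RPS26: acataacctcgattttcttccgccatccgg

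These windows lie at chr11:809957-809986 (+) for RPLP2, chr20:62387093-62387122 (+) for RPS21, chr9:124861938-124861967 (-) for RPL35, chr9:19380217-19380246 (-) for RPS6 and chr6:33272065-33272094 (+) for RPS18. For the higher members they lie at chr19:49487598-49487627 (+) for RPL13A, chr19:54200848-54200877 (+) for RPS9, chr2:216498834-216498863 (+) for RPL37A, chr5:150449720-150449749 (-) for RPS14, chr22:39319604-39319633 (-) for RPL3, chrX:154398055-154398084 (+) for RPL10 and chr6:35468391-35468420 (+) for RPL10A. That of RPS26 lies at chr12:56041908-56041937 (+). The 20 bases from the start are the first of the annotated gene.

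The capitals differ in length among the shown genes, from 13 in RPLP2 to 4 in RPL3, and RPL10, RPL10A and RPS26 have none at their annotated starts. Runs of at least 5 were present in 4 of 4 lower members with a window, in 4 of 9 higher members and in 34 of 49 members that were not called. With 4 and 9 genes these shares are a description. Within the 300 bases of the window, on either strand, the ETS-type motif CCGGAAG was found in 33.9% of the members and 10.7% of all promoters. The TATA-type motif TATAAA was found in 8.06% and 11.95%, and the YY1-type motif AAGATGGC, which can overlap a start codon, in 9.68% and 3.03%. A match is a description of the sequence and not a binding site.

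Several members occupy the very highest ranks, where quantile normalization leaves few values to take and the gap from 1 rank to the next is wide. The mean step per rank was 0.176 between ranks 1 and 3 and 0.103 between ranks 3 and 10, but 0.026 between ranks 10 and 50 and 0.0077 between ranks 100 and 300. Of the 77 members, 67 were within the 200 highest ranks in every library and 50 within the 100 highest, and 6 or 7 were among the first 10 in each. Only 4 members, RPL14, RPL28, RPL37 and RPS29, were ever beyond rank 300.

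RPS2, a small subunit protein at the mRNA entry side, was the highest gene of all 3 VC libraries at 12.04 and the second of all 3 KO libraries at 11.80, 11.79 and 11.79. Its log2 fold change of -0.24 (SE 0.060, limma adjusted p = 0.0335) was the same as the step from rank 1 to rank 2, 0.24. The place above it was taken by 1 gene, MMP1, an interstitial collagenase, which stood at ranks 68, 64 and 67 in VC, with 9.49, 9.60 and 9.50, and at rank 1 in all 3 KO libraries with 12.04 (log2 fold change 2.51, limma adjusted p = 0.00197). Thus RPS2 dropped by exactly 1 rank. When MMP1 was left out and the quantile normalization repeated, a setting chosen after seeing the data, RPS2 was the highest gene of all 6 libraries. Quantile normalization gives the highest rank the same value in every library. The log2 fold change of RPS2 of 0.00 there was thus fixed in advance and is not a measurement.

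RPS18, a protein of the small subunit head, followed RPS2 by 1 place. It was at 11.80 and rank 2 in all 3 VC libraries, and at 11.69, 11.68 and 11.68 and rank 3 in KO replicates 1 to 3. Its log2 fold change was -0.11 (limma adjusted p = 0.188), not called. With MMP1 left out RPS18 was at rank 2 in all 6 libraries, so its 0.00 there was likewise fixed in advance. In VC, MMP1 had 39, 38 and 38 of the 77 members above it, so each of these lost 1 rank in KO to MMP1 alone. With MMP1 left out, 13 members were called higher and 7 lower, and the median member was at 0.10. Over all genes tested in that setting, 6969 of 17697 were called. RPS2 and RPL35 were the called members that were no longer called there (adjusted p = 0.052 for RPL35). A further quantile normalization of the genes with 6 values that kept MMP1 also gave 13 higher members. It gave 9 lower members, a median of 0.08 and 6970 calls of 17698 genes. The 13 higher calls were thus not particular to leaving out MMP1.

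RPLP2, by contrast, moved by more than that 1 place. It was at rank 3 in all 3 VC libraries, with 11.69 in each, and at ranks 8, 13 and 9 in KO replicates 1 to 3, with 11.12, 10.84 and 11.01. With MMP1 left out its log2 fold change was -0.59, still called (limma adjusted p = 0.00938). RPLP0 moved the other way through the same ranks, from rank 9 in each VC library to 7, 6 and 6.

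**Figure D2:**
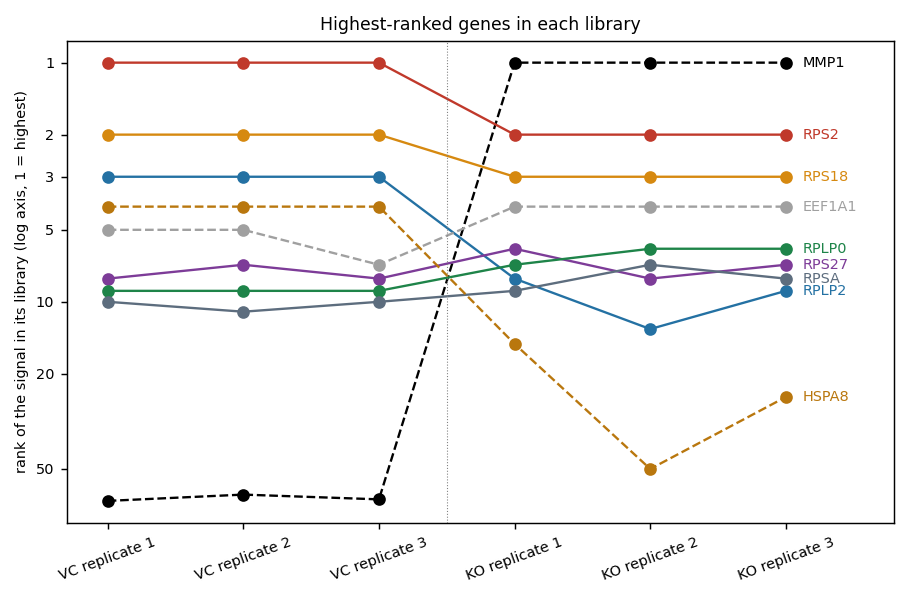
Rank of the signal in its library (vertical axis, log scale, 1 is the highest) in the 3 VC and 3 KO libraries (horizontal axis) for 6 ribosomal protein genes (solid lines) and MMP1, HSPA8 and EEF1A1 (dashed lines). MMP1 goes from ranks 64 to 68 to rank 1, RPS2 and RPS18 each drop 1 rank, and RPLP2 goes from rank 3 to ranks 8 to 13.

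Called members with higher signals were more often on the lower side, the top-ranked RPS2 and RPLP2 included. The 9 lower members had a median rank of 26 and the 9 higher members a median rank of 115. Across the 77 members the log2 fold change and the mean signal had a Spearman correlation of -0.43; this is a description across genes, which share the same 6 libraries and the same normalization.

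The stalk of the large subunit, which recruits the translation GTPases, consists of RPLP0 as its base and of RPLP1 and RPLP2 as acidic arms. Of these 3 genes RPLP2 alone was called. RPLP2 fell by 0.69 (SE 0.093, limma adjusted p = 0.0107), which on the linear scale was -38.2%, the largest decrease of any member. All 3 KO libraries were below all 3 VC libraries, with KO replicate 2 the lowest. Its partner RPLP1 had 10.82, 10.66 and 10.86 in VC and 10.85, 10.71 and 10.80 in KO. These groups overlapped and the log2 fold change was 0.01 (SE 0.087, adjusted p = 0.935). RPLP0 had 11.04, 11.02 and 11.03 in VC and 11.19, 11.23 and 11.23 in KO, without overlap, but 0.19 (SE 0.061) did not pass (adjusted p = 0.0642). The difference between the 3 stalk genes was not tested.

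Of the other lower genes of the large subunit, RPL8, which lies near the peptidyl transferase centre, had 10.79, 10.74 and 10.78 in VC and 10.23, 10.21 and 10.19 in KO replicates 1 to 3. The KO libraries were tightly grouped and far below VC, a fall of 0.56 (SE 0.062, limma adjusted p = 0.00891), the lowest p of any member. RPL7 had 9.67, 9.67 and 9.64 in VC and 9.17, 9.20 and 9.24 in KO. It dropped by 0.45 (SE 0.063, limma adjusted p = 0.0113) without overlap. RPL30, a protein at the interface of the subunits, had 10.67, 10.68 and 10.59 in VC and 10.22, 10.24 and 10.21 in KO. Its decrease, -0.42 (SE 0.065, limma adjusted p = 0.0132), was again alike in the 3 KO libraries.

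RPL35 belongs to the proteins around the exit of the peptide tunnel and had 10.73, 10.72 and 10.72 in VC. In KO it had 10.55, 10.43 and 10.35, a wider spread with replicate 1 the nearest to VC. It passed narrowly, at -0.28 (SE 0.078, limma adjusted p = 0.0459). Of the 7 genes listed for the exit ring it was the only one called. The others ran from -0.11 for RPL39 to 0.18 for RPL31, with RPL26 at -0.07, RPL19 at 0.06 and RPL23A at -0.0028.

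In the small subunit 4 genes were lower. RPS21 had 8.78, 8.67 and 8.64 in VC and 8.38, 8.42 and 8.41 in KO (-0.29, SE 0.072, limma adjusted p = 0.034). RPS20, a protein of the head, had 8.70, 8.63 and 8.66 in VC and 8.45, 8.41 and 8.45 in KO (-0.23, SE 0.063, adjusted p = 0.0447). RPS6, the substrate of the S6 kinases downstream of mTOR, had 10.92, 10.96 and 10.91 in VC and 10.72, 10.67 and 10.63 in KO (-0.26, SE 0.065, adjusted p = 0.0368). None of these 3 overlapped between groups, and with RPS2 they are the 4 called. Each was called in only 1 of 6 fits that left out a library, the fit without KO replicate 1.

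RPS26, which contacts mRNA upstream of the start codon at the exit channel, had the second largest negative value and was not called. It had 8.28, 8.16 and 8.31 in VC and 7.94, 7.25 and 7.72 in KO. All 3 KO libraries were below VC, but they were spread over more than the distance of KO replicate 1 from VC. The log2 fold change was -0.61 with the largest SE of any member, 0.19 (limma adjusted p = 0.0576).

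Among the higher members, 6 belonged to the large subunit. RPL10A, a protein of the L1 stalk at the exit for used tRNA, had 9.35, 9.32 and 9.33 in VC and 9.66, 10.01 and 9.80 in KO. It rose by 0.49 (SE 0.11, limma adjusted p = 0.0266), or 40.0% on the linear scale, the largest rise of a member. RPL3, whose long finger reaches toward the peptidyl transferase centre, had 10.30, 10.23 and 10.31 in VC and 10.64, 10.80 and 10.73 in KO. It rose by 0.44 (SE 0.075, adjusted p = 0.0156). RPL10, a late-joining protein needed for the final maturation of the large subunit, had 8.48, 8.45 and 8.45 in VC and 8.78, 8.97 and 8.88 in KO, a rise of 0.41 (SE 0.077, adjusted p = 0.0187). In these 3 genes every KO library was above every VC library, and KO replicate 2 was the highest.

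RPL13A, also known as a phosphorylated repressor of inflammatory mRNAs in immune cells, had 10.43, 10.31 and 10.46 in VC and 10.66, 11.01 and 10.84 in KO (0.44, SE 0.11, limma adjusted p = 0.0369). RPL13 had 8.34, 8.20 and 8.32 in VC and 8.54, 8.71 and 8.61 in KO (0.33, SE 0.082, adjusted p = 0.0339). RPL37A had 8.29, 8.29 and 8.25 in VC and 8.53, 8.61 and 8.54 in KO (0.28, SE 0.064, adjusted p = 0.029). The groups did not overlap for any of them, and RPL13A and RPL10A were the least even among the KO libraries of the 6 large subunit genes.

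The 3 higher genes of the small subunit were RPS28, RPS9 and RPS14. RPS28, a small protein at the mRNA exit channel next to RPS26, had 7.84, 7.63 and 7.82 in VC and 8.05, 8.26 and 8.08 in KO (0.37, SE 0.10, limma adjusted p = 0.0426). RPS9, an early assembly protein of the body, had 8.86, 8.88 and 8.84 in VC and 9.04, 9.28 and 9.18 in KO (0.30, SE 0.085, adjusted p = 0.0451). RPS14, the gene on chromosome 5 whose reduced dosage is linked to the anaemia of the 5q- syndrome, had 8.50, 8.48 and 8.50 in VC and 8.69, 8.80 and 8.71 in KO (0.24, SE 0.066, adjusted p = 0.0438).

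All 9 higher members had the same order of KO libraries, with replicate 1 the lowest, replicate 3 between and replicate 2 the highest. This was also the order of the KO libraries on the first principal component of all genes. KO replicate 2 was the library farthest from the VC mean in 9 of 9 higher members, in 3 of 9 lower members and in 43 of all 77. What sets KO replicate 1 nearer to VC was not tested.

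**Figure D3:**
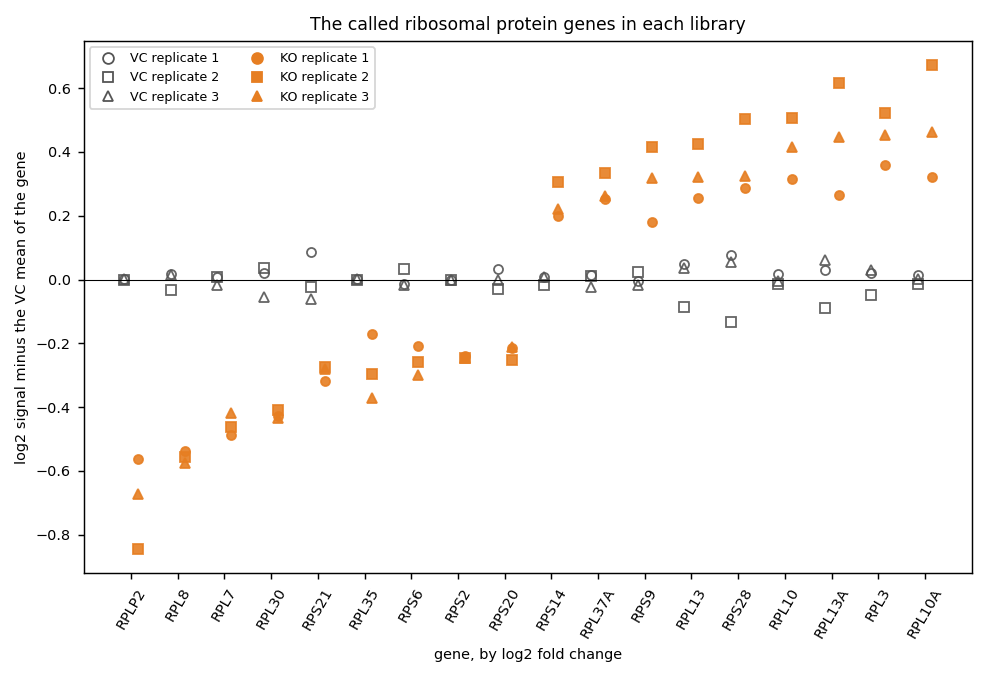
Log2 signal minus the VC mean of the gene (vertical axis) for the 18 called ribosomal protein genes (horizontal axis, ordered by log2 fold change), with 1 marker per library (open for VC, filled for KO, shape by replicate). The 3 KO markers lie to 1 side of the 3 VC markers in each gene, RPL8 and RPL30 are tight, and in the 9 higher genes KO replicate 2 is always the highest.

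Few of these calls held when a library was removed. RPLP2 and RPL8 were called in all 6 fits that left out 1 library each, with limma adjusted p no higher than 0.049 and 0.045. RPL7 was called in 4, RPL30 in 3, and RPL10A, RPL3 and RPL10 in 2 each. The other 11 were called in 1. Without KO replicate 1, 17 members were called higher and 12 lower; without VC replicate 1, VC replicate 2, VC replicate 3, KO replicate 2 or KO replicate 3 the counts were 0, 0, 0, 3 and 0 higher and 2, 4, 2, 4 and 3 lower. Over all genes these fits, in the same order, gave 8669, 1403, 2450, 1223, 4393 and 2018 calls. At an unadjusted limma p under 0.05 these 6 fits gave 9 to 21 higher and 8 to 14 lower members, counts given without a share over all genes. A total of 66 members had the same sign in all 6.

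The 2 subunits gave similar pictures. In the large subunit 6 of 46 were higher and 5 lower, with a median of 0.06. In the small subunit 3 of 31 were higher and 4 lower, with a median of 0.03. The shares over all genes tested were 13.1% higher and 19.8% lower. The 5S ribonucleoprotein proteins RPL5 and RPL11, which bind MDM2 when ribosome assembly is disturbed, were not called. RPL5 had 9.93, 10.004 and 9.92 in VC and 9.97, 10.12 and 10.10 in KO, an overlap, with a log2 fold change of 0.11 (limma adjusted p = 0.284). RPL11 had 9.90, 9.85 and 9.84 in VC and 9.73, 9.72 and 9.70 in KO, all lower, at -0.15 (adjusted p = 0.122). Of 5 genes listed for the mRNA channel, RPS28 rose, RPS2 fell, and RPS26, RPS3 and RPS23 did not pass, at -0.61, 0.24 and 0.04.

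A further 12 members had an adjusted p between 0.05 and 0.1, RPLP0, RPS26 and RPS3 among them, so the division between called and not called runs through a dense part of the list. RPL15, named here after its values were seen, was the nearest to the threshold from outside, at 0.27 (SE 0.080, limma adjusted p = 0.05003). RPS27, among the 5 members of highest signal, had 11.13, 11.19 and 11.13 in VC and 11.24, 11.11 and 11.18 in KO. It overlapped between groups, with a log2 fold change of 0.03 (SE 0.070, adjusted p = 0.778).

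Where the genes lie in the genome was not used to choose them. All 4 members on chromosome 8, RPL8, RPL7, RPL30 and RPS20, were lower. Among the 318 other genes of chromosome 8 in the upper 50% of mean signal the median log2 fold change was -0.27 and 45.6% were called lower, against -0.09 and 22.7% for the 9263 such genes of all chromosomes. RPS21, on chromosome 20, was lower as well, where 285 other genes had a median of -0.24 and 46.3% were lower. RPL3, on chromosome 22, was higher, where 238 other genes had a median of 0.30, 48.3% were higher and 2.10% were lower. RPS29 went the other way on chromosome 14, the chromosome with the lowest median (-0.35 over 334 other genes, 56.6% lower). RPS29 had 5.53, 5.40 and 5.37 in VC and 5.59, 5.66 and 5.69 in KO, all above VC, at 0.21 (SE 0.078, limma adjusted p = 0.0853). RPL17 on chromosome 18, where the median of 125 other genes was -0.10, was at 0.16 (adjusted p = 0.152). These are the named chromosomes and the extremes. On chromosomes 1, 2, 3, 4, 5, 10, 15, 16, 17, 19 and X too, the other genes' median was negative and the members' median positive. On chromosomes 6, 9, 11, 12 and 13 both were negative.

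On a finer scale, some of the members had values on the same side as the genes around them. Each was set beside up to 10 genes on either side of it, all from the same upper 50% by signal and none of them members. The 20 neighbours of RPL30 had a median log2 fold change of -0.64 and 18 of them were lower. For RPS21 these values were -0.74 and 17, for RPL7 -0.57 and 14, for RPS20 -0.39 and 14, for RPLP2 on chromosome 11 -0.37 and 12, and for RPL8, which had only 15 neighbours, -0.35 and 7 of 15. RPL3 had neighbours at 0.37, with 12 of 20 higher. Of the other called genes, RPL10A was at 0.49 with neighbours at -0.14 and RPL10 at 0.41 with neighbours at -0.08. RPL13A was at 0.44 with neighbours at 0.02. For the lower RPL35 and RPS6 the neighbours were at -0.15 and -0.31. For the higher RPS14, RPS9, RPS28, RPL13 and RPL37A they were at 0.13, 0.13, 0.18, -0.10 and -0.14. RPS2, at -0.24, had neighbours at -0.21, of which 3 were lower. These differences were not tested.

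Of the 7 members with at least 10 of 20 neighbours lower, 5 were called lower, and 2, RPS29 and RPS15A, had positive values. Across the 77 members the log2 fold change and the neighbours' median had a Pearson correlation of 0.47 and a Spearman correlation of 0.29. Over the 70 members outside chromosomes 8, 14, 20 and 22 these were 0.28 and 0.15, with 8 members higher, 4 lower and a median of 0.06. Among all genes tested, 13.1% were called higher and 19.8% lower. The points share the same libraries, and neighbourhoods of members close to each other overlap. Chromosome copy number was not measured, and its part in these values was not tested.

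**Figure D4:**
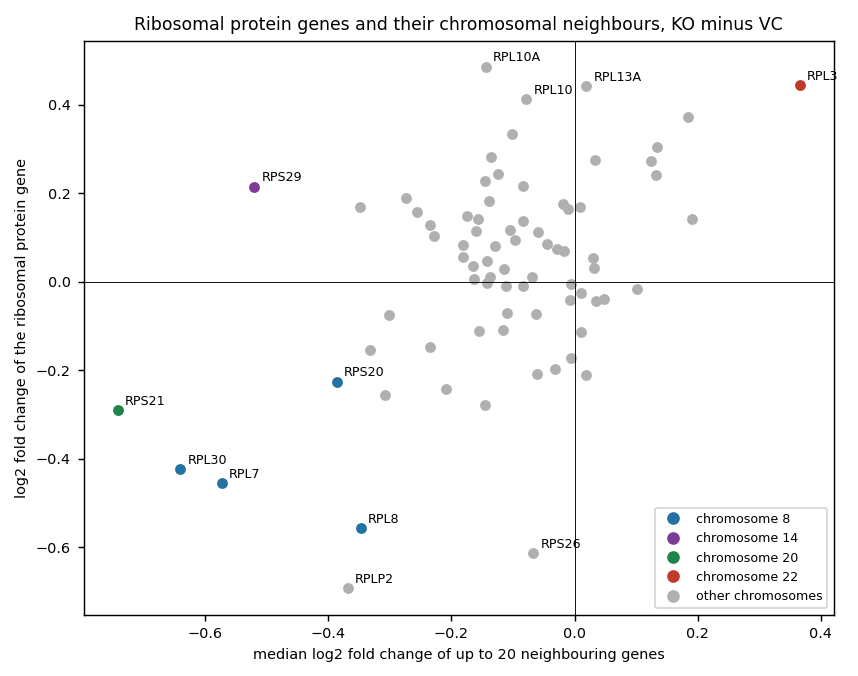
Log2 fold change of each of the 77 ribosomal protein genes (vertical axis) against the median log2 fold change of up to 20 neighbouring genes (horizontal axis), coloured by chromosome. The chromosome 8 genes and RPS21 lie at the lower left, RPL3 at the upper right, and RPS29 at the upper left with its neighbours at -0.52 and itself at 0.21.

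Genes that work with the ribosomal proteins were read from lists. FAU, made as a fusion with a ubiquitin-type protein, and RACK1, a scaffold on the small subunit, lie outside the naming rule and were not called, at -0.07 (limma adjusted p = 0.58) and 0.23 (adjusted p = 0.0735). Among 8 paralogues 6 were tested. RPL22L1, the paralogue of RPL22, rose by 0.29 (adjusted p = 0.0262), and RPS27L, a p53 target, fell by 0.43 (adjusted p = 0.014). Of 15 other mRNAs known to carry a TOP tract, EEF2, EIF4B and HNRNPA1 rose, by 0.50, 0.50 and 0.27, and PABPC1 and EEF1D, both on chromosome 8, fell by 0.53 and 0.37. Among all genes tested, 13.1% were called higher and 19.8% lower. The median of the 15 was 0.19, with an SD of 0.32, against 0.05 and 0.23 for the ribosomal protein genes, a difference that was not tested.

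Of 8 regulators of TOP mRNA translation none was called higher and 3 were lower, with a median of -0.25 and 4 at an unadjusted p under 0.05; over all genes tested 13.1% were called higher and 19.8% lower. LARP1, which binds the cap and the tract, was at -0.46 (limma adjusted p = 0.0271), the kinase gene MTOR at -0.37, and CNBP, an RNA-binding protein, at -0.34 (adjusted p = 0.0346). These are mRNA levels, and the median of all genes was -0.13. Whether the mRNAs of the 77 members were translated differently was not measured.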

How the data were processed

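RNA-seq of 3 VC and 3 KO samples of 143B cells was analysed from 1 table of log2 signals by gene symbol. The deposited log2 values had been quantile-normalized between libraries by the authors, and their linear unit is not given. The labels name the Illumina TruSeq Stranded mRNA kit, and the submitters' processing notes name CASAVA, STAR, Partek and build GRCh38.p13; the study's methods instead speak of total RNA and list an Illumina NextSeq 500 instrument, CLC Genomics and Partek. Some cells of the table are empty. Depth is unknown, so counting error could not be computed.

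The signals were used as deposited, with limma 3.58.1 under R 4.3.3. Each gene needed 2 or more values per group to be tested, which 19306 genes had, 17698 of them with all 6. Groups were compared by limma's linear model with empirical Bayes moderation, without covariates, with Benjamini-Hochberg adjustment of the two-sided p-values over all genes tested. The scripts were tested on simulated data. The members and gene lists were chosen with earlier results of these data known. The genes named were up to 10 members called lower and up to 10 called higher, the 5 of highest mean signal, those on chromosomes 8, 14, 18 and 20, RPS6, the role lists (5S ribonucleoprotein, stalk, exit ring, mRNA channel), and companion genes that passed the test or that a sentence turned on; RPS15A and genes named by rank were chosen after their values were seen. Promoter windows, chromosomes and neighbours came from RefSeq (GRCh38.p14) and snoRNAs from GENCODE 29, matched by symbol; the builds differ from that of the table, so only names, order and sequence were used. Alternatives changed the filter, the scaling, the linear offset, the variance model, the replicate block and the libraries included. Read counts, other data types of the study and the authors' own comparisons were not used here. A withheld item is not reported here.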

Additional observations from a re-analysis of the deposited data

How the results depend on the processing

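The counts of called members moved with most choices. The members called with the signals as deposited kept their direction, RPS2 excepted. Of all 77 members, 45 had the same sign as deposited and under the 4 other scalings. From 9 higher and 9 lower, testing the upper 50% of mean signal gave 16 and 14, adding 1 to the linear signal 26 and 18, moderation with a trend and robust variances 18 and 17, and no moderation 15 and 13. Over all genes these settings gave 5702 calls of 9653 tested, then 7773, 7923 and 4432 of 19306. The members' share was above that of all genes with 1 added, with a trend and without moderation, and under it in the upper 50%. Centring on the library median gave 14 and 4, and on the members' median 3 and 18, with 6238 and 7553 calls over all genes. The members' median log2 fold change, 0.055, was 0.138 and -0.076 with these last 2, 0.081 with a further quantile normalization and 0.098 with MMP1 left out. Leaving out 1 library gave 0 to 17 higher and 2 to 12 lower, with medians of 0.047 to 0.068, and over all genes 1223 to 8669 calls against 6354. Only the fit without KO replicate 1 raised the counts. A replicate block gave 0 higher (7 at an unadjusted limma p under 0.05) and 2 lower, with 1533 calls over all genes; the same-numbered libraries had correlations of 0.023, 0.0051 and -0.0074 between their deviations, VC replicate 2 went best with KO replicate 3 (0.031), and the numbers were not taken as pairs. Of 510 alternative values for 34 named members, 360 kept their side of the threshold and direction, 102 lost and 34 gained a call, and 14 changed sign, all in members not called. Centred on the members' median, these were RPL19 (-0.075), RPL5 (-0.017), RPLP1 (-0.12), RPS23 (-0.096) and RPS27 (-0.10). Centred on the library median they were RPL23A (0.081) and RPL26 (0.0093), and with a further quantile normalization RPL23A (0.030). Over the fits that left out a library, RPL23A ran from -0.013 to 0.0029 (0.0024 without VC replicate 2 and 0.0022 without KO replicate 3), RPLP1 from -0.049 (without VC replicate 2) to 0.049 (-0.022 without KO replicate 1) and RPS27 from -0.0029 (without KO replicate 1) to 0.061. The causes of these changes were not tested. With the depth and unit unknown, values near 0 cannot be read as equal levels.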

Other observations

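Of 20 genes listed as assembly factors of the ribosome, all tested, 4 were higher and 6 lower by limma, with a median log2 fold change of -0.24. Over all genes tested 13.1% were called higher and 19.8% lower. Of the 20, 35.0% lay beyond 0.5 in either direction, as against 39.6% of all genes tested and 3.90% of the ribosomal protein genes. Among the higher 4, NOB1, the nuclease that trims the small subunit RNA, rose by 0.62, NMD3, the export adaptor of the large subunit, by 0.54, EFL1, the GTPase that releases EIF6, by 0.50, and ZNF622 by 0.39. The lower 6 were RRS1, AAR2, NAP1L4, TSR2, LTV1 and EIF6. RRS1, a loader of the 5S particle on chromosome 8, was at -0.74, AAR2 on chromosome 20 at -0.61 and NAP1L4 at -0.61. AAR2 is known as an assembly factor of the splicing machinery and not of the ribosome, and it counts in the values given for the 20. TSR2, the chaperone of RPS26, was at -0.52, LTV1, a chaperone of the small subunit head, at -0.38, and EIF6 on chromosome 20 at -0.38. SBDS, the partner of EFL1, at -0.07, PNO1, the partner of NOB1, at -0.35 and LSG1, which releases NMD3, at -0.24 were not called.

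Many ribosomal protein genes carry small nucleolar RNAs in their introns, which are processed from the same transcript. By GENCODE annotation 28 of the 77 did. These had a median of 0.08, with 4 higher and 4 lower, and the other 49 a median of 0.05, with 5 higher and 5 lower. Among rows named as ribosomal protein pseudogenes, 26 were tested, 2 were higher and 1 lower, and the 23 with 6 values had a median log2 signal of 0.79. Beside the counts in this paragraph, 13.1% of all genes tested were called higher and 19.8% lower.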
